A study of Homo sapiens with 6 samples.

Results

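The miRNA genes between DLK1 and DIO3 on the long arm of human chromosome 14 form one of the large miRNA clusters of placental mammals, and 44 mature miRNAs from it were examined in Huh7 cells. The members are defined by name alone, from a list of mature miRNAs of the cluster, although the cluster was picked for description with earlier results of these data known. All 44 names were found among the 2588 mature miRNAs of the deposited table. Huh7 is an established human hepatoma line with hepatocyte features. Its cells received either a plasmid overexpressing the circular RNA hsa_circ_0098181 or a control plasmid, in both cases with Lipofectamine 2000, and RNA was collected 48 h later. There were 3 libraries with overexpression and 3 control libraries, all from this line alone, and the labels do not say whether the 3 were separate cultures, so p-values may measure technical spread between these samples only. The comparison addressed which miRNAs changed in amount when the circular RNA was overexpressed.

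The region is imprinted. The protein-coding genes DLK1, RTL1 and DIO3 are transcribed mainly from the paternal chromosome, whereas the long non-coding RNAs MEG3, MEG8 and MEG9 and the miRNAs come from the maternal one. The miRNAs are cut from long maternal transcripts, are abundant in embryo, placenta and brain, and are generally low in adult liver. In the annotation of GRCh38 the members lay on the plus strand between bases 100852409 and 101066786 of chromosome 14. They fell into 2 stretches separated by 111 kb. The first held 11 members at chr14:100852409-100911207, downstream of the start of MEG3 (chr14:100779410-100861031) and across RTL1 (chr14:100879753-100903722, minus strand). The other held 33 members at chr14:101022071-101066786, from miR-379 to miR-656, within or beside MEG8, MIR381HG and MEG9. DLK1 (chr14:100725705-100738224) and DIO3 (chr14:101561351-101563452) flanked both.

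The mature sequences of the most abundant members, which carry most of the counts, are given first. Each is written 5′ to 3′, with the seed (bases 2 to 8, which pair with target mRNAs) in capitals, and was taken from RefSeq on GRCh38.p14. The species prefix hsa is left out of most names in the text.
hsa-miR-127-3p: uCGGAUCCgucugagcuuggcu
hsa-miR-379-5p: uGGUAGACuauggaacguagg
hsa-miR-411-5p: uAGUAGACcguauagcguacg
hsa-miR-381-3p: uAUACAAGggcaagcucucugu
hsa-miR-382-5p: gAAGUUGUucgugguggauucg
hsa-miR-369-3p: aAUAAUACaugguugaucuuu
hsa-miR-323a-3p: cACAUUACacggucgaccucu
hsa-miR-494-3p: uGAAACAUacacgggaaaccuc
The miR-376 family is shown as a group because its members are close enough in sequence for reads to be confused.
hsa-miR-376a-3p: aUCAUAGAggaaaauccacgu
hsa-miR-376b-3p: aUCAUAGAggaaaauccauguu
hsa-miR-376c-3p: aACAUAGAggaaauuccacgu
Sequences were matched for 43 of the 44 members, all but miR-668-3p. Most members had a seed of their own: 30 shared it with no other miRNA of the table, 6 shared it with another product of the locus, and 7 shared it with a miRNA from elsewhere in the genome. The members were 20 to 23 bases long, with 23.8% to 70.0% G and C.

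The libraries held 7978507, 8469016 and 8289232 miRNA counts with overexpression and 10786295, 8677214 and 7144798 in the controls. Control replicate 3 stood apart: over the 274 miRNAs with at least 100 counts in every library, its median absolute log2 difference from control replicates 1 and 2 was 0.227 and 0.206, while those 2 controls differed by 0.0697 and overexpression libraries by 0.0979 to 0.137. Of the hepatocyte markers all 4 were detected in every library, with a summed level of 366000 to 384000 transcripts per 1000000 (TPM) with overexpression and 347000 to 372000 in the controls. Summed blood-cell miRNAs (5 of 5 detected) were 13.3 to 14.3 TPM with overexpression and 17.0 to 19.1 TPM in the controls, stromal miRNAs (5 of 5) 119 to 127 and 128 to 138 TPM, and muscle miRNAs (3 of 3) 1.45 to 2.24 and 1.68 to 2.23 TPM. The endothelial miR-126-3p was at 3190 to 3270 and 3050 to 3160 TPM, and the 2 neural miRNAs summed to 115 to 131 and 98.6 to 149 TPM. No marker was at 0 over the 6 libraries, and the part of other cells' RNA in the results below was not tested.

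The cluster made up a very small share of the miRNA counts. All 44 members together held 1454 of 51345062 counts, or 0.00283%, whereas the hepatocyte miRNA miR-122-5p alone held 16558447. In bulk RNA, fewer cells that express a miRNA and less of it in each cell cannot be told apart. At least 1 count was present for 37 members (84.1%), against 1366 of all 2588 miRNAs (52.8%). A count in every library was found for 18 members (40.9%) against 750 miRNAs (29.0%). At least 10 counts in every library were found for 5 members (11.4%) against 486 miRNAs (18.8%), so at this threshold the members' share was the lower. Over all rows, those at 0 included, the median level was 0.187 TPM for the members and 0.0197 TPM for the table. Among detected miRNAs alone the order was the opposite, with a median total over the 6 libraries of 13 counts for members and 25 for all. The number of members with a count was 27, 30 and 25 in the overexpression libraries and 28, 26 and 28 in the controls.

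Counts were spread unevenly among members. miR-127-3p alone gave 20.6% of the cluster's counts, the 3 most abundant members 41.3%, the 6 most abundant 63.3% and the 9 most abundant 75.8%. By total, 7 members had 60 counts or more, 13 had 13 to 59, 9 had 4 to 12, and 8 had 1 to 3. The 7 with no count in any library were miR-487a-3p, miR-539-5p, miR-654-5p, miR-656-3p, miR-665, miR-668-3p and miR-770-5p. With a floor of 3 counts, an absent miRNA could still have been present at up to 0.278 to 0.42 counts per 1000000 (CPM), depending on the library. The floor covers counting error only, as do all intervals on counts given here.

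The stretch near MEG3 and RTL1 rested on a single miRNA. hsa-miR-127-3p (chr14:100883035-100883056) is transcribed opposite to an RTL1 exon and is known to direct cleavage of the RTL1 transcript. It had 44, 48 and 45 counts with overexpression and 61, 53 and 49 in the controls. After scaling by library size and trimmed-mean (TMM) factors, its level was 5.54, 6.16 and 5.61 CPM against 5.63, 5.92 and 6.31 CPM. It was the highest member in 6 of 6 libraries, and the groups overlapped, with means of 5.77 ± 0.339 (SD, n = 3) and 5.95 ± 0.339 CPM (SD, n = 3). The coefficient of variation over the 6 libraries, 5.45%, was below the 14.1% that counting alone gives at its mean count. In edgeR's quasi-likelihood test the log2 fold change was -0.04 (SE 0.19, 95% interval -0.44 to 0.36), with a Benjamini-Hochberg adjusted p of 0.931. The interval corresponds to a fold of 0.735 to 1.29, which is the range of change the data leave for the best-measured member.

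The remaining members of that stretch were sparse. Without miR-127-3p they gave 97 counts in all, and 9 of the 11 members were detected. miR-431-5p, which also lies opposite to RTL1, had 6, 3 and 7 counts with overexpression and 10, 4 and 6 in the controls, and the groups overlapped. miR-432-5p had 0, 6 and 4 counts against 3, 1 and 1. The arms of miR-493 had 13 counts each, miR-370-3p 8, miR-136-5p 5, miR-337-3p 5 and miR-433-3p 2 counts over the 6 libraries. None of these passed the filter on low counts. No count was found for miR-665 or for miR-770-5p, the latter of which lies in an exon of MEG3.

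**Figure D1:**
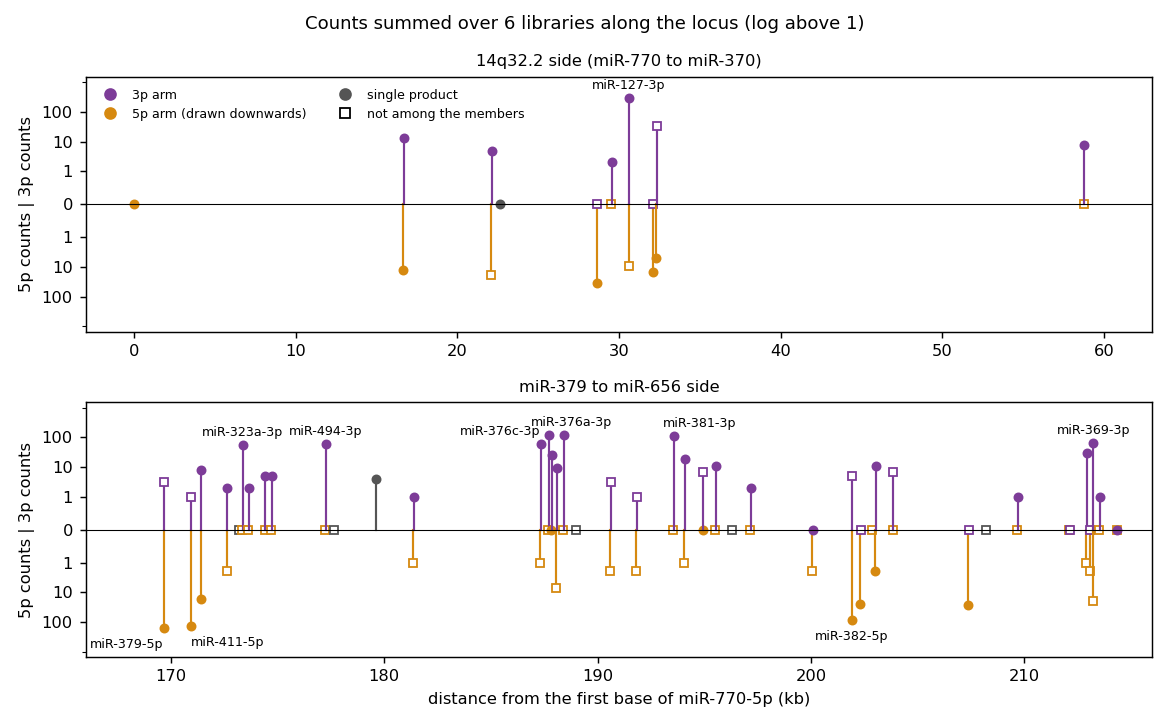
Counts summed over the 6 libraries (symmetrical log axis, 3p products upwards and 5p products downwards) are plotted against the distance in kb from the first base of miR-770-5p, with filled points for members and open squares for other miRNAs of the locus. miR-127-3p stands alone in the upper stretch with 300 counts, while 6 members of the lower stretch had 60 counts or more. The 2 precursors of miR-376a-3p carry the same mature sequence and are both drawn with its full count.

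The miR-379 to miR-656 stretch gave 1057 counts, 72.7% of the total, from 28 detected members of 33. At its upstream end lie hsa-miR-379-5p (chr14:101022071-101022091) and hsa-miR-411-5p (chr14:101023340-101023360), both in an intron of MEG8. miR-379-5p had 34, 27 and 17 counts with overexpression and 40, 26 and 21 in the controls. Its level was 4.28, 3.46 and 2.12 CPM against 3.69, 2.9 and 2.7 CPM. Overexpression replicate 1 was the highest and overexpression replicate 3 the lowest of the 6, so the control values lay within the range of the others (means 3.29 ± 1.09 and 3.1 ± 0.523 CPM, SD, n = 3 each). The log2 fold change was 0.07 (SE 0.29, 95% interval -0.56 to 0.70), edgeR adjusted p = 0.93. miR-411-5p had 21, 17 and 23 counts with overexpression and 30, 18 and 26 in the controls, or 2.64, 2.18 and 2.87 CPM against 2.77, 2.01 and 3.35 CPM. The groups overlapped here too, with a log2 fold change of -0.07 (SE 0.29, 95% interval -0.70 to 0.56) and an edgeR adjusted p of 0.928.

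hsa-miR-323a-3p (chr14:101025782-101025802), in an intron of MEG8 as well, had the largest positive fold change among tested members. It had 11, 12 and 9 counts with overexpression and 7, 2 and 13 in the controls. The levels were 1.38, 1.54 and 1.12 CPM with overexpression, close together, and 0.646, 0.223 and 1.67 CPM in the controls, which included both the lowest and the highest of the 6. The log2 fold change was 0.73 (SE 0.55, 95% interval -0.44 to 1.91), edgeR adjusted p = 0.653. The value depended on single controls. Without control replicate 3, the library that stood apart, it was 1.53 (95% interval 0.27 to 2.78, edgeR unadjusted p = 0.0181, adjusted p = 0.122). In that fit 119 of all 565 miRNAs tested had an edgeR unadjusted p under 0.05, against 50 of 552 with all 6 libraries. Without control replicate 2, which had 2 counts, the log2 fold change of miR-323a-3p was 0.29 (edgeR adjusted p = 0.906). Its closest relative, miR-323b-3p, was 3 base edits away and had 7 counts in all.

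hsa-miR-376a-3p was the most abundant of its family, with 121 counts. The same mature sequence comes from 2 precursors (chr14:101040118-101040138 and chr14:101040825-101040845), which counts cannot separate. The family is known for adenosine-to-inosine editing in the seed, which a count of the unedited sequence may miss. miR-376a-3p had 20, 17 and 21 counts with overexpression and 16, 33 and 14 in the controls, or 2.52, 2.18 and 2.62 CPM against 1.48, 3.69 and 1.8 CPM. Control replicate 2 was the highest and control replicate 1 the lowest library, so the spread was wider in the controls (1.19 CPM, SD) than with overexpression (0.23 CPM, SD). The log2 fold change was 0.08 (SE 0.36, 95% interval -0.69 to 0.86), edgeR adjusted p = 0.928. miR-376c-3p (chr14:101039732-101039752) had 7, 7 and 10 counts against 16, 7 and 12, or 0.881, 0.898 and 1.25 CPM against 1.48, 0.782 and 1.54 CPM. The groups overlapped through control replicate 2, and the log2 fold change was -0.32 (SE 0.43, 95% interval -1.25 to 0.60), edgeR adjusted p = 0.798. miR-376b-3p (chr14:101040497-101040518) had 9 counts, of which 7 were in control replicate 1. As the sequences above show, miR-376a-3p and miR-376b-3p share the seed UCAUAGA, and miR-376a-3p made up 94.2% of that pool. It was 2 base edits away from each of the others, so their counts are uncertain where the counting split such reads.

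hsa-miR-381-3p (chr14:101045968-101045989, in an intron of its host transcript MIR381HG) was the tested member with the smallest p. It had 14, 15 and 13 counts with overexpression and 28, 18 and 24 in the controls. The levels were 1.76, 1.92 and 1.62 CPM with overexpression and 2.58, 2.01 and 3.09 CPM in the controls, so that each control lay above each overexpression library. It was the only tested member of 9 whose groups did not overlap, and over all miRNAs tested 15.4% did not. The log2 fold change was -0.52 (SE 0.31, 95% interval -1.19 to 0.14), a fold of 0.696 (0.439 to 1.1), with an edgeR unadjusted p of 0.114 and an adjusted p of 0.598. Its direction held under 13 of 13 alternative settings, which refit the same libraries, and so did that of miR-127-3p. The directions of miR-376c-3p and miR-323a-3p also held, under the 11 and 12 settings that tested them. For miR-381-3p the log2 fold changes in the 13 settings ran from -0.67 to -0.35, with adjusted p from 0.43 to 0.865. miR-300, which shares its seed AUACAAG, had no count.

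hsa-miR-382-5p (chr14:101054316-101054337) had 18, 11 and 8 counts with overexpression and 22, 13 and 16 in the controls, or 2.26, 1.41 and 0.998 CPM against 2.03, 1.45 and 2.06 CPM. Overexpression replicates 1 and 3 were the highest and the lowest library, and the log2 fold change was -0.25 (SE 0.38, 95% interval -1.05 to 0.56), edgeR adjusted p = 0.808. hsa-miR-369-3p (chr14:101065641-101065661), in an intron of MEG9, is known for acting through AU-rich elements. It had 5, 14 and 10 counts against 13, 7 and 14, or 0.629, 1.8 and 1.25 CPM against 1.2, 0.782 and 1.8 CPM. Overexpression replicate 1 was the lowest library, overexpression replicate 2 and control replicate 3 were level as the highest, and the log2 fold change was -0.02 (SE 0.47, 95% interval -1.03 to 0.98), edgeR adjusted p = 0.985. hsa-miR-494-3p (chr14:101029681-101029702) had 59 counts, as many as miR-376c-3p, but did not pass the filter on low counts. It had 4, 9 and 14 counts with overexpression and 18, 8 and 6 in the controls, 1.13 ± 0.622 against 1.11 ± 0.482 CPM (SD, n = 3 each). Both groups covered nearly the same range.

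**Figure D2:**
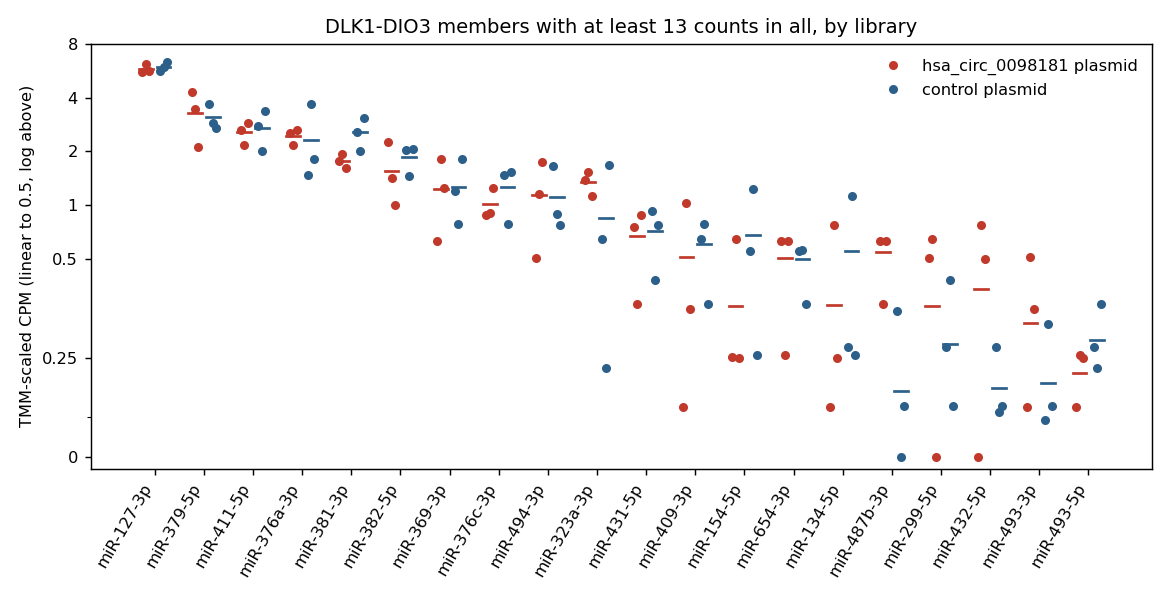
Levels in TMM-scaled CPM (linear up to 0.5, log above) are shown for each library and each member with at least 13 counts, with red points for overexpression, blue points for controls and lines for the group means. Groups overlap for 8 of the 9 tested members, and miR-381-3p is the exception.

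Over the whole table, 552 of 2588 miRNAs (21.3%) passed the filter on low counts and were tested, and 9 of the 44 members (20.5%) did. These 9 held 1097 of the cluster's 1454 counts. None of the 9 was called at an adjusted p of 0.05 by edgeR, where the share called over all miRNAs tested was 0%, and none had an unadjusted p under 0.05, where it was 9.06%. Neither DESeq2 nor limma called any of the 552, with 41 and 52 at an unadjusted p under 0.05 (edgeR 50). Log2 fold changes of the tested members ran from -0.52 to 0.73, with 6 below 0 and 3 above, and 49.1% of all miRNAs tested were below 0. Scaled by library size alone, 8 of the 9 were below 0, as were 70.5% of all miRNAs tested. Their median was -0.04 and that of all miRNAs tested 0.00. The SE ranged from 0.19 for miR-127-3p to 0.55 for miR-323a-3p, against a median of 0.17 over all miRNAs tested. Changes of the sizes within these intervals are compatible with the data. Without control replicate 3, edgeR called 56 of 565 miRNAs (9.91%), and none of the 10 members then tested was among them.

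**Figure D3:**
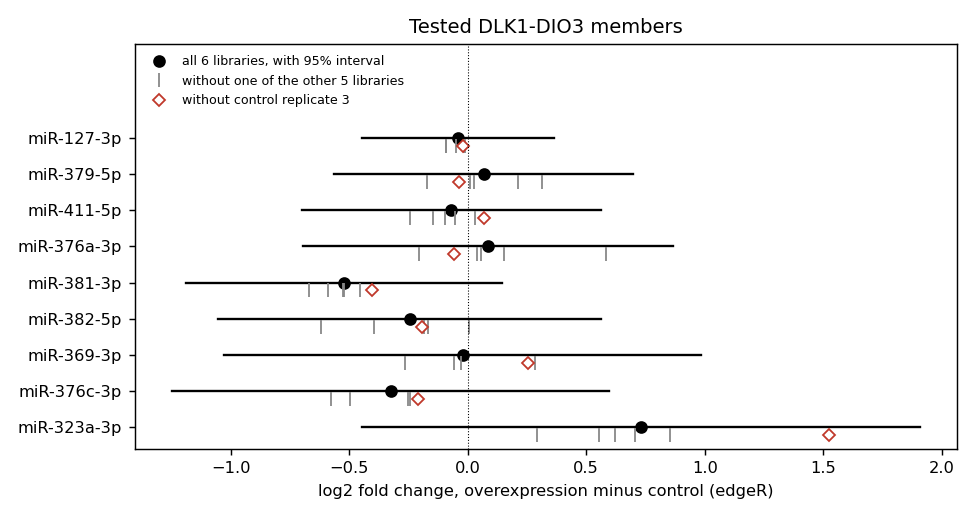
Filled points give edgeR's log2 fold change (overexpression minus control) of the 9 tested members, lines the 95% intervals, ticks the values without 1 of the other 5 libraries and diamonds those without control replicate 3. Each interval includes 0, from the narrowest at miR-127-3p (-0.44 to 0.36) to the widest at miR-323a-3p (-0.44 to 1.91), whose diamond lies at 1.53.

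The summed level of the cluster was 27.3, 30.3 and 26.6 TMM-scaled CPM with overexpression and 29.3, 27.1 and 29.3 in the controls, with means of 28.1 ± 1.96 and 28.6 ± 1.24 (SD, n = 3 each) and overlapping groups. The log2 ratio of the means was -0.03. In TPM as deposited, scaled by library size alone, the sums were 27.2, 27.9 and 25.7 against 29.4, 28.0 and 31.9, with a log2 ratio of -0.15. The groups did not overlap on that scale, by a margin of 27.9 to 28.0 TPM. That scaling also moved the median of all miRNAs tested from 0.00 to -0.11, so the cluster's sum was lower by little more than the typical miRNA.

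The 2 stretches were then summed apart. Near MEG3 and RTL1 the sum was 6.92, 8.47 and 8.11 CPM with overexpression and 7.57, 7.26 and 8.24 in the controls (7.83 ± 0.81 and 7.69 ± 0.498, SD, n = 3 each). From miR-379 to miR-656 it was 20.4, 21.8 and 18.5 CPM against 21.7, 19.9 and 21.1 (20.2 ± 1.68 and 20.9 ± 0.92, SD, n = 3 each). The log2 ratio of the first stretch to the other, which does not depend on library size, was -1.55, -1.36 and -1.18 with overexpression and -1.51, -1.45 and -1.35 in the controls. The difference between the group means was 0.07, within the spread of the overexpression libraries (0.18, SD).

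Both arms of a precursor can be loaded into Argonaute, but usually one is retained. Of 24 precursors of the locus with at least 10 counts, the 2 of miR-376a-3p being counted as 1, 13 gave mostly the 3p arm and 8 mostly the 5p arm, and for 3 (MIR493, MIR299 and MIR376B) the 95% exact Clopper-Pearson interval of the 3p share included 50%. MIR127 gave 300 counts of the 3p arm and 9 of the 5p arm, a 3p share of 97.1% (94.5 to 98.7%). MIR381 gave 112 and 0 counts (100%, 96.8 to 100%), whereas MIR379 gave 3 and 165 (1.79%, 0.37 to 5.13%). The arms were least separated among abundant precursors at MIR369, with 63 counts of the 3p arm and 19 of the 5p arm (76.8%, 66.2 to 85.4%). For 2 of these 24 precursors the arm on the member list was the minor one, and both arms are shown for that reason.
hsa-miR-136-5p: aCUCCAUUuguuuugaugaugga
hsa-miR-136-3p: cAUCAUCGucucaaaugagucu
hsa-miR-337-3p: cUCCUAUAugaugccuuucuuc
hsa-miR-337-5p: gAACGGCUucauacaggaguu
MIR136 gave 5 counts of the listed 5p arm and 33 of the 3p arm (86.8% 3p, 71.9 to 95.6%), and MIR337 gave 5 counts of the listed 3p arm and 18 of the 5p arm (21.7% 3p, 7.46 to 43.7%). Below 10 counts, MIR539 gave 0 counts of the listed 5p arm and 7 of the 3p arm, and MIR487A gave 0 of the listed 3p arm and 2 of the 5p arm, so these members without a count came from precursors whose other arm was seen. The 48 products of the locus that are not on the list added 125 counts to a total of 1579 (7.92%). Of these 48, 20 were detected, 2 (miR-136-3p and miR-369-5p) in every library, and none passed the filter on low counts.

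Of the 4 precursors with both arms among the members, only miR-493 had enough counts in both for a test between groups. Its log2 ratio of 3p to 5p, with 0.5 added to each count, was 0.00, 0.85 and 0.49 with overexpression and -1.22, 0.49 and -1.22 in the controls. Two-sided, the exact permutation test gave p = 0.3 for the difference of 1.10, and 3 samples against 3 cannot go below 0.1. The other pairs had 8 and 17 counts (miR-299, 3p and 5p), 11 and 2 (miR-485) and 26 and 0 (miR-654).

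A seed found elsewhere in the genome can be supplied by the other miRNA or by the member. miR-329-3p is shown with miR-362-3p, a miRNA from the X chromosome (chrX:50009005-50009026, plus strand), because they share the seed ACACACC but differ at most bases after it.
hsa-miR-329-3p: aACACACCugguuaaccucuuu
hsa-miR-362-3p: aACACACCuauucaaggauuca
hsa-miR-329-3p was at 0.102 TPM and miR-362-3p at 61.5 TPM, so the cluster gave 0.166% of that pool. By contrast miR-379-5p shared its seed with miR-3529-5p, which was at only 0.0402 TPM.

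Members with counts in a single group were among the rarest. miR-758-3p (2 counts), miR-377-3p (1) and miR-410-3p (1) were seen with overexpression only, and miR-380-3p (2), miR-485-5p (2) and miR-495-3p (1) in the controls only. No fold is given, since all were under the floor of 3 counts. Among sparse members with more counts, miR-409-3p had 1, 8 and 3 counts with overexpression and 7, 7 and 3 in the controls, and miR-654-3p 5, 2 and 5 against 6, 5 and 3. In both, the groups overlapped. miR-487b-3p, named after its values were seen, had 5, 3 and 5 counts against 4, 0 and 1. In TMM-scaled CPM its groups did not overlap, with 0.385 in overexpression replicate 2 and 0.369 in control replicate 1. In deposited TPM they overlapped, with 0.354 and 0.371 in the same libraries. Over the 552 miRNAs that passed the filter on low counts, 15.4% did not overlap in TMM-scaled CPM, a share that leaves out miRNAs this sparse. With 18 counts in all, miR-487b-3p was not tested.

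The other large imprinted miRNA cluster, C19MC (chr19:53666692-53762418), which is active in placenta, served for comparison. Only 8 of its 56 products had a count (14.3%), with 10 counts in all and at most 2 for any of them. The 2 sets were built differently, as every C19MC product of the table was taken, whereas the 44 members are a list. Among the 48 other products of the DLK1-DIO3 locus, 20 had a count (41.7%). The DLK1-DIO3 members were thus low in these cells, with 1454 counts from 37 of the 44, and 9 passed the filter on low counts.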

How the data were processed

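Counts and TPM from miRNA sequencing for 6 Huh7 libraries were deposited by the authors in a single table with 1 row per mature miRNA. The submitters' processing notes name hg38, Bowtie, TopHat and TopHat2 2.0.9. Which of them made the counts, the miRNA annotation and how multi-mapping reads were counted are not given in the sources used here. The deposited TPM equalled counts per 1000000 (CPM) to within 0.00303, without a length correction, which is small among mature miRNAs.

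Groups were taken from the sample titles. Counts were tested with edgeR 4.0.16 (R 4.3.3) by the quasi-likelihood method with TMM factors, after filterByExpr (minimum count 10, minimum total 15), with group as the only term, two-sided, and Benjamini-Hochberg adjustment over all 552 miRNAs tested. The threshold was 0.05. Alternatives were DESeq2 1.42.0, limma 3.58.1 on log2(CPM + 1), other scalings, other filters, a replicate block and leaving out each library. The fit was tested on simulated data. Arm ratios were compared by exact permutation (scipy 1.17.1). Depth ranged from 7144798 to 10786295 counts per library, so 3 counts corresponded to 0.278 to 0.42 CPM.

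Members are described by list. Full values are given for the 8 most abundant and for the 2 tested members with the smallest p. The rule for members uses names and no measured value, but the cluster, the lists and the rules were chosen with earlier results of these data known. Sequences came from RefSeq (GRCh38.p14) and host genes from GENCODE on GRCh38. Same-numbered libraries were checked for shared deviation over 274 abundant miRNAs. The correlations were -0.14, 0.19 and 0.18, so the numbers were not taken to pair samples.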

Additional observations from a re-analysis of the deposited data

How the results depend on the processing

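The count of 0 called members held under all alternatives, including the replicate block. With that block the median log2 fold change was -0.06, and 6 of 9 tested members were lower, as were 48.9% of all miRNAs tested. The summed level had a log2 ratio of -0.03, and the balance of the stretches was 0.07. The miR-493 arm difference was 1.10 (exact paired permutation p = 0.25). With 3 pairs that permutation test cannot go below 0.25, so it could not decide on a difference. Without a filter 20 of 37 members were lower, as were 51.4% of all miRNAs in that fit. When 10 counts in every library were required, 3 of 5 members were lower (49.2% of all miRNAs), against 6 of 9 (49.1%). Over the whole table edgeR called 3 miRNAs with library size alone and 6 without a filter, none of them members. The log2 ratio of summed levels was -0.15 with library size alone. Detection fell from 37 members to 18 with a count in every library and 5 with at least 10. Library size alone turned miR-379-5p to -0.04 and miR-376a-3p to -0.026. Leaving out 1 library turned miR-379-5p to -0.17 (without overexpression replicate 1) and -0.04 (without control replicate 3), miR-376a-3p to -0.20 (without control replicate 1) and -0.06 (without control replicate 3), miR-369-3p to 0.285 (without overexpression replicate 1) and 0.26 (without control replicate 3), miR-411-5p to 0.03 (without overexpression replicate 2) and 0.069 (without control replicate 3), and miR-382-5p to 0.0034 (without overexpression replicate 3). Leave-one-out ranges were -0.17 to 0.31 for miR-379-5p, -0.20 to 0.58 for miR-376a-3p, -0.27 to 0.285 for miR-369-3p, -0.24 to 0.069 for miR-411-5p, -0.62 to 0.0034 for miR-382-5p, -0.21 to -0.01 for the median and -0.09 to 0.01 for the summed level. The cause was not tested. Adjusted p of tested members lay between 0.122 and 0.999 over all alternatives. Of the 44 members, 35 were too sparse to pass the filter on low counts.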

Other observations

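Some members of the miR-379 to miR-656 stretch had their highest count in control replicate 2. miR-154-5p had 2, 5 and 2 counts with overexpression and 6, 11 and 2 in the controls. miR-134-5p, known from dendrites of neurons, had 1, 6 and 2 counts with overexpression and 3, 10 and 2 in the controls. miR-376a-3p had 33 counts in that library and 14 to 21 in the others. These members were singled out after their values were seen, and no test of this pattern was run.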
